A study of Drosophila melanogaster with 24 samples.

Results

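Insulin signalling in Drosophila was examined through 9 genes that cover the pathway from its ligands to its main transcription factor: Ilp2, Ilp3, Ilp5, ImpL2, InR, chico, Pi3K92E, foxo and Thor. A gene was followed through every probe set (the group of short probes that together measure a transcript) that the annotation of the array assigns to that gene alone. Of the 9 genes, 6 had such a probe set, with 1 probe set each among the 18769 in the value table, where the annotation names 11981 genes in this way. They were Ilp2 (probe set 1629220_at), Ilp5 (1624745_at), ImpL2 (1636202_s_at), InR (1629141_at), chico (1631374_at) and foxo (1631597_at). Ilp3, Thor and Pi3K92E are not analysed here.

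Transcript abundance was measured in whole adult flies from lines of Drosophila melanogaster that had been selected for 25 generations on locomotor reactivity, the movement of a fly after a mechanical disturbance. The 3 selection groups are called High (H), Low (L) and Control (C). H lines were bred from the most active flies, L lines from the least active flies and C lines from flies taken without regard to activity. Each group had 2 replicate lines drawn from 1 outbred base population of wild origin, so all 6 lines share that origin and no group carries a transgene or a drug treatment. Virgin flies aged 3 to 7 days were pooled by 12 for a sample, 2 female and 2 male pools from each line, for 24 arrays in all, with 8 in each group and 4 in each group and sex.

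Insulin-like peptides of the fly are secreted into the haemolymph, several of them by a small set of neurosecretory cells in the brain. They bind a receptor tyrosine kinase, InR, which acts through the adaptor protein Chico and the lipid kinase Pi3K92E to activate the kinase Akt. Akt keeps the transcription factor Foxo out of the nucleus and relieves the restraint on the growth kinase TOR, so that feeding raises growth and storage while fasting releases Foxo and its targets, Thor among them. The pathway is known in adult flies for its part in metabolism, egg production, stress resistance and lifespan.

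The unit throughout is Signal, a linear and unitless brightness that the authors computed for each probe set and scaled on each array, so levels of different probe sets are not set against each other. All 6 insulin signalling probe sets passed the filter on low values, which required the median Signal of all arrays to reach 75, as did 11439 probe sets in all. Differences are in log2(Signal), from a limma fit to the 12 means of line and sex over all 11439 probe sets, with Benjamini-Hochberg adjustment over all of them. A difference between selection groups was called at an adjusted p under 0.05, and an effect of line, sex or their interaction under 0.001. Errors come from the 2 samples of a line and sex, which are separate pools of flies of the same line, and leave out the variation among lines within a group.

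Some properties of the whole data set bear on these genes. The median Signal was 93.0 to 117.5 in females and 143.2 to 157.7 in males, although the authors' scaling left the trimmed mean between 497 and 499 on every array. As a check of the sex labels, the Signal of the yolk protein gene Yp1 was at least 15631.8 in every female sample and at most 44.3 in every male sample, and that of Yp3 at least 12688.3 and at most 253.1. In whole flies, a change in the number of cells that express a gene and a change in the RNA per cell cannot be told apart. Of the markers of other tissues, 12 ovary and egg shell probe sets had a summed Signal of 64814 to 93744.5 in L females, above the 18197.2 to 53479.9 of H females and the 23287.3 to 58984.6 of C females, with no overlap. Of these 12 probe sets, 6 passed the filter and were tested, and the others entered the sum only, so the calls do not cover the whole sum. Among the 6 in females, 1 was called between H and L, the egg shell gene Cp15, lower in H, where 14.5% of all probe sets were called. The Signal of osk, an ovary gene, was 8955.3 to 9327.8 in H females and 8440 to 9532.2 in L females on its probe set of highest mean. In males the same sum was 229.2 to 443.1 over all groups. The summed Signal of 7 brain and neuron markers was 1229 to 1387.7 in L females, 1312.9 to 1719.7 in H females and 1564.1 to 1652.5 in C females. In males it was 1621.6 to 2204.7 in L, 1906.4 to 2160.6 in H and 1928.4 to 2562.7 in C.

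**Figure D1:**
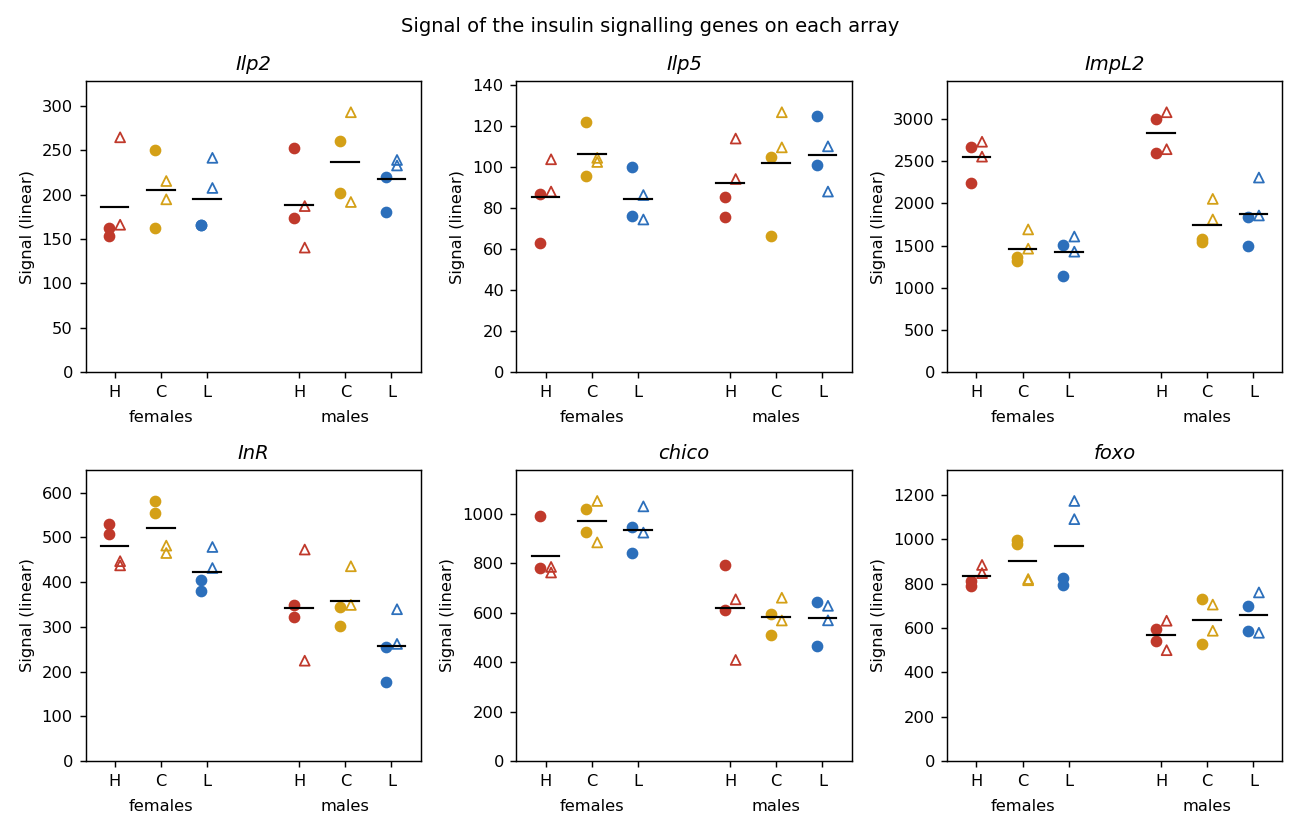
Signal (vertical axis, linear, starting at 0) of the 6 insulin signalling probe sets on each of the 24 arrays, by sex and selection group (H, High; C, Control; L, Low). Filled circles are line 1, open triangles line 2 and horizontal bars the mean of 4 arrays. ImpL2 in H lies above L and C in both sexes, with 2245.0 as its lowest H female array, while the groups overlap for Ilp2, Ilp5 and chico.

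ImpL2 was the insulin signalling gene called between H and both other groups. It encodes a secreted protein with immunoglobulin domains that binds insulin-like peptides and antagonizes the pathway outside the cell. Averaged over the sexes, its transcript abundance was 1.66 times as high in H as in L and 1.69 times as high in H as in C. In females these ratios were 1.80 and 1.75 and in males 1.52 and 1.63, while the difference of C and L was within its error. The ImpL2 probe set has the suffix of the manufacturer for probes that match more than 1 transcript, and the annotation names ImpL2 alone.

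In females, the ImpL2 Signal was 2245.0 and 2666.1 in High line 1 and 2728.6 and 2552.2 in High line 2. It was 1510.7 and 1142.8 in Low line 1, and 1427.9 and 1606.8 in Low line 2. In the Control females it was 1363.8 and 1312.5 in line 1 and 1463.2 and 1691.1 in line 2. All 4 H female arrays were therefore above all 8 arrays of L and C females, which overlapped with each other. In males, the Signal was 2596.6 and 2994.6 in High line 1 and 3077.5 and 2640.2 in High line 2. The Low males had 1493.2 and 1842.1 in line 1 and 2304.9 and 1856.1 in line 2. The Control males had 1573.9 and 1538.0 in line 1 and 2052.5 and 1809.1 in line 2. Here too the H arrays did not overlap with the others, and the highest of the others, 2304.9, was from Low line 2.

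The difference of H minus L in ImpL2 was 0.73 (SE 0.08, 95% interval 0.55 to 0.90, limma adjusted p = 3.65e-05), and ImpL2 ranked 108 of 11439 probe sets by p. Among all probe sets tested, 15.7% were called between H and L, and 1 of the 6 insulin signalling genes was. H minus C was 0.76 (SE 0.08, interval 0.58 to 0.93, adjusted p = 4.23e-05, rank 58), where 11.2% of all probe sets were called and again 1 of 6. C minus L was -0.03 (SE 0.08, interval -0.20 to 0.15, adjusted p = 0.854), where 15.5% were called and 0 of 6. H and C share the fit and H enters both contrasts, so these results are not independent of each other. A rise above both L and C was called for 2.16% of all probe sets. Arrays of H all above those of L in each sex were found for 1.44% of probe sets, all above those of C for 0.708%, and above both for 0.201%, ImpL2 being in each of these sets.

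Within females, the ImpL2 difference of H minus L was 0.85 (SE 0.12, adjusted p = 0.000345), in a comparison that called 14.5% of all probe sets and 1 of the 6 genes. Within males it was 0.61 (SE 0.12, adjusted p = 0.00598), where 5.57% and 1 of 6 were called. The difference between the sexes was 0.24 (interval -0.11 to 0.59, adjusted p = 0.515), in a test that called 0.551% of all probe sets and 0 of the 6 genes. H minus C was 0.81 in females (adjusted p = 0.000938; 6.27% of all called) and 0.70 in males (adjusted p = 0.00331; 3.06% of all called), both with an SE of 0.12. The rise thus passed the test in each sex on its own. For the ovary and egg shell markers, whose summed Signal in L females exceeded that of H females, the part in the female ImpL2 difference was not tested.

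Some markers of the gut and of the fat body also differed between the groups, not all in the pattern of ImpL2. Between H and L, 15.7% of all probe sets were called, and so few markers cannot be told from that share. Of the 6 gut markers tested, 2 were called, both alpha-glucosidase genes and both higher in H. They were Mal-A1, at a log2 difference of 0.44 (SE 0.07, adjusted p = 0.000836), and Mal-A2, at 0.67 (SE 0.11, adjusted p = 0.000989). Mal-A1 was also higher in H than in C by 0.30 (adjusted p = 0.0156). Mal-A2 was not called there (0.27, adjusted p = 0.149), but was higher in C than in L by 0.40 (adjusted p = 0.0275). Within the sexes, 2 of the 6 gut markers were called between H and L in females (14.5% of all probe sets) and 0 in males (5.57% of all). Of the 6 fat body markers tested, 1 was called higher and 1 lower in H than in L. Cyp6a8, a cytochrome P450 gene, was higher in H than in L by 2.65 (SE 0.18, adjusted p = 3.67e-07) and than in C by 1.03 (adjusted p = 0.00216). It was also higher in C than in L, by 1.62 (adjusted p = 6.38e-05). Lsp2, a storage protein gene, was lower in H than in L by a log2 difference of -1.34 (SE 0.43, adjusted p = 0.0494), with H minus C at -0.63 (adjusted p = 0.409). The summed Signal of the gut markers overlapped between the groups, with 92066.4 to 108131 in H females, 84187.1 to 106106 in L females and 88118.1 to 103056 in C females, and 79833.3 to 96913.7, 80937.4 to 100577 and 72585.8 to 91884.2 in males. That of the fat body markers overlapped too, with 65145.5 to 80189.2, 70100.4 to 83246.9 and 56991.7 to 76442.5 in females and 13564.5 to 18857.9, 15176.7 to 19899.8 and 14104.5 to 18680 in males. The part of these markers in the ImpL2 difference was not tested.

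Ordered by the mean log2(Signal) over both sexes, ImpL2 was highest in High line 2 (11.42) and High line 1 (11.35), followed by Low line 2 (10.79), Control line 2 (10.77), Low line 1 (10.53) and Control line 1 (10.49). The High lines differed by 0.07 (adjusted p = 0.802), so their order is within error. Lines 1 of L and C were lower than lines 2 by 0.26 (adjusted p = 0.223) and 0.27 (adjusted p = 0.221), which did not pass the test either. Among all probe sets, 5.36% were called between the High lines, 3.87% between the Low lines and 5.57% between the Control lines, and 0 of the 6 insulin signalling genes in each.

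An effect of line, tested over the 6 lines at once, was called for ImpL2 (adjusted p = 9.67e-05, rank 209) and for none of the other 5 insulin signalling genes, whose adjusted p ranged from 0.128 for InR to 0.485 for chico. The background was 4.76% of all probe sets. Without High line 2 the adjusted p of ImpL2 was 0.00169, above the threshold of 0.001, and 0 of the 6 genes were then called. The test of whether lines differed between the sexes called 0.0437% of all probe sets and 0 of the 6 genes, with an adjusted p of 0.875 for ImpL2. With the mean of each line as the sample, so that 6 values enter in place of 24, 0 of 11439 probe sets were called between any groups by limma. At an unadjusted p under 0.05 there were then 1100 between H and L, 825 between H and C and 1054 between C and L. ImpL2 was then at an adjusted p of 0.343 for H minus L (unadjusted p = 0.00363) and 0.504 for H minus C (unadjusted p = 0.00304).

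The lines of each group are numbered 1 and 2. The study's methods describe 2 founding bottles that were each divided among the groups, but the labels do not say that a line number marks a bottle. Within line number 1, the ImpL2 difference of line means was 0.82 for H minus L and 0.86 for H minus C. Within line number 2 it was 0.63 and 0.66. With line number as a block in the fit of line means, a setting chosen after the data were seen, ImpL2 was at an adjusted p of 0.325 for H minus L (unadjusted p = 0.00215) and 0.454 for H minus C (unadjusted p = 0.00184). Again 0 of 11439 probe sets were called by limma in any comparison of groups, with 1162, 877 and 1115 at an unadjusted p under 0.05 for H minus L, H minus C and C minus L.

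**Figure D2:**
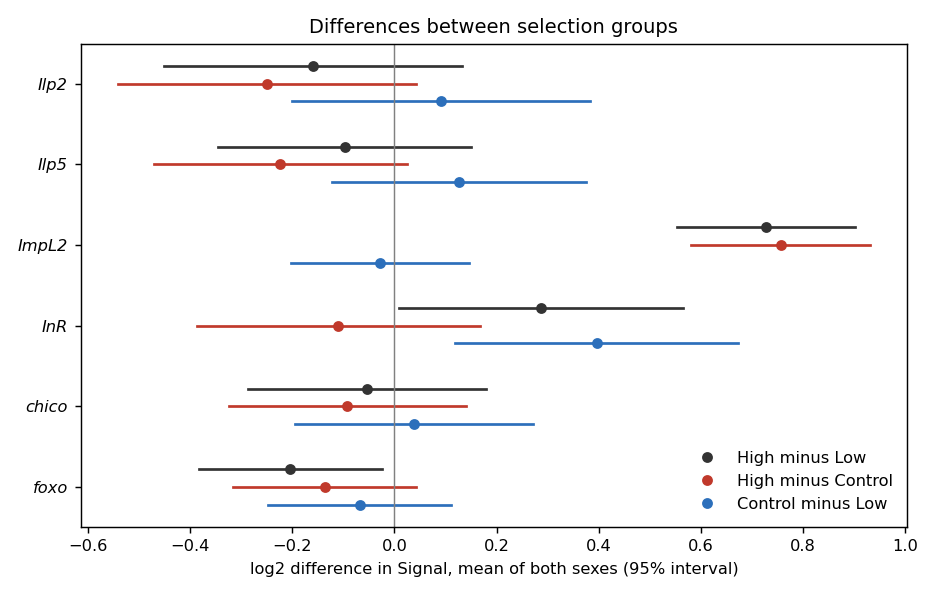
Differences in log2(Signal) between selection groups (horizontal axis) for the 6 insulin signalling genes, averaged over both sexes, with points for the estimate and lines for its 95% interval from limma. ImpL2 lies at 0.73 for H minus L and 0.76 for H minus C with intervals above 0, and at -0.03 for C minus L. The interval of InR for C minus L, 0.12 to 0.67, also lies above 0, but the adjusted p is 0.0528. For H minus L, the interval of InR, 0.01 to 0.56, lies above 0 and that of foxo, -0.38 to -0.02, below 0. Neither was called (adjusted p = 0.152 and 0.116).

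The ligands Ilp2 and Ilp5 are made by the neurosecretory cells of the brain, and neither differed between the groups by the test. The Ilp genes 1 to 5 stand next to each other in the gene order of RefSeq (assembly Release 6 plus ISO1 MT), with CG43897 between Ilp4 and Ilp5. In females, the Ilp2 Signal had a range of 153.5 to 264.5 in H, 165.4 to 241.4 in L and 162.5 to 250.2 in C. In males it was 140.4 to 253.0, 180.8 to 239.0 and 191.7 to 292.7. The 3 groups overlapped in both sexes. The Ilp2 difference of H minus L was -0.16 (SE 0.14, interval -0.45 to 0.13, adjusted p = 0.478) and that of H minus C was -0.25 (interval -0.54 to 0.04, adjusted p = 0.281). The order of its pooled means, C, L and H, is within error at each step, with C minus L at 0.09 (interval -0.20 to 0.38).

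Ilp5 lay closest to the filter, with a median Signal of 97.7. In females its Signal was 63.2 to 103.7 in H, 74.4 to 100 in L and 95.4 to 122.0 in C. In males it was 75.6 to 113.8, 88.0 to 124.8 and 66.2 to 126.6. These ranges overlapped, too. H minus L was -0.10 (SE 0.12, interval -0.34 to 0.15, adjusted p = 0.628), H minus C was -0.22 (interval -0.47 to 0.02, adjusted p = 0.251) and C minus L was 0.13 (interval -0.12 to 0.37, adjusted p = 0.502). The order C, L, H of the Ilp5 means was the same as for Ilp2, and within error as well.

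InR, the receptor, had its lowest mean in L. In females, its Signal was 507.2 and 529.9 in High line 1 and 437.3 and 446.7 in High line 2. The Low females had 380.9 and 403.6 in line 1 and 478.4 and 431.4 in line 2. The Control females had 581.3 and 553.6 in line 1 and 464.9 and 481.5 in line 2. Low line 1 thus held the lowest female values and Control line 1 the highest, and the groups overlapped. In males, the Signal was 347.8 and 320.9 in High line 1, and 472.7 and 224.3 in High line 2. The Low males had 176.4 and 254.8 in line 1 and 339.3 and 261.8 in line 2. The Control males had 343.8 and 302.9 in line 1 and 435.3 and 348.9 in line 2. The samples of High line 2 males lay further apart than those of any other line and sex, with replicate 1 above and replicate 2 below all Control males.

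C minus L in InR was 0.40 (SE 0.13, interval 0.12 to 0.67), at an adjusted p of 0.0528, just short of the threshold. It passed with the methods' analysis of the linear Signal (adjusted p = 0.0368), with log2(Signal + 50) (0.0315) and with a median Signal of at least 150 (0.0464). It did not pass with quantile normalization, with medians centred by sex, or with a filter of 50 or none. Nor did it pass with a replicate block or with line as a random block. C minus L of InR also passed without either sample of High line 2 males (0.00733 for each) and without High line 2 (0.0103). The difference stayed at 0.40 in these fits, which hold all C and L arrays, so that only its error and the adjustment changed. It passed as well without replicate 2 of Low line 1 males (0.0349) and without replicate 1 of Low line 2 males (0.0474). The other 25 of the 30 fits with an array or line left out did not call it. Over the 30, the difference was 0.22 to 0.57 and the adjusted p at most 0.387. With line means as the samples the limma adjusted p was 0.534. The difference was 0.57 within line number 1 and 0.22 within line number 2. H minus L was 0.29 (SE 0.13, interval 0.01 to 0.56, adjusted p = 0.152). Over the 30 fits with an array or line left out, H minus L was 0.11 to 0.46 and the limma adjusted p at most 0.679. Of these fits, 28 did not call it. The 2 that did were without High line 2, at 0.35 (adjusted p = 0.0436), and without replicate 2 of High line 2 males, at 0.42 (adjusted p = 0.00678). The InR Signal of that replicate, 224.3, was below all other H and C arrays. That sample was also lowest of all 24 for chico (409.5) and foxo (500.1), while its correlation across all probe sets with its replicate was 0.982, inside the range of 0.969 to 0.985 for the 12 lines and sexes. H minus C was -0.11 (interval -0.39 to 0.17, adjusted p = 0.659). The summed Signal of the brain and neuron markers was lower in L females than in C females with no overlap, while in males the ranges overlapped. Of the 7 markers, 1 was called for C minus L over both sexes, where 15.5% of all probe sets were called. It was elav, at 0.43 (limma adjusted p = 0.000178). The part of these markers in the lower InR of L was not tested, nor was that of the ovary markers.

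chico encodes the insulin receptor substrate of the fly, and its group differences were small beside their errors. The Signal in females was 763.5 to 993.1 in H, 841.6 to 1031.3 in L and 885.4 to 1053.3 in C. In males it was 409.5 to 795.8, 464.9 to 645.7 and 509.3 to 661.4. The H range enclosed those of L and C in males and overlapped with them in females. H minus L was -0.05 (SE 0.11, interval -0.29 to 0.18, adjusted p = 0.792), H minus C was -0.09 (interval -0.32 to 0.14, adjusted p = 0.657) and C minus L was 0.04 (interval -0.19 to 0.27, adjusted p = 0.853).

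foxo, the transcription factor held back by the pathway, had its lowest mean in H. Its Signal in females was 789.3 to 884.7 in H, 792.3 to 1173.4 in L and 815.6 to 997.1 in C, and in males 500.1 to 633.1, 578.7 to 760.7 and 526.2 to 729.7. The highest values, 1173.4 and 1091.3, came from Low line 2 females, and the groups overlapped. H minus L was -0.20 (SE 0.08, interval -0.38 to -0.02, adjusted p = 0.116). The call was made in the methods' analysis of the linear Signal (adjusted p = 0.0474). H minus C was -0.14 (adjusted p = 0.344) and C minus L -0.07 (adjusted p = 0.634). The foxo order was therefore L, C, H, and its neighbours did not differ beyond their error.

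Between the sexes, the called genes were others. InR, chico and foxo, the receptor, its adaptor and the transcription factor, were lower in males by limma, and the ligands and ImpL2 were not called. Of all probe sets, 69.5% were called for sex, 43.9% as higher in females, against 3 of the 6 insulin signalling genes, all 3 higher in females. The median difference of males minus females over all probe sets was -0.19, and it was -0.21 over the 6 genes.

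foxo had a lowest, median and highest Signal of 789.3, 836.15 and 1173.4 in females and 500.1, 592.1 and 760.7 in males. Every female array was above every male array, which held for 28.7% of all probe sets. The difference of males minus females was -0.54 (SE 0.07, adjusted p = 2.84e-06). The chico values were 763.5, 927.05 and 1053.3 in females and 409.5, 604.05 and 795.8 in males, with an overlap only through a male of High line 1. Its difference was -0.63 (SE 0.09, adjusted p = 8.39e-06). InR had 380.9, 471.65 and 581.3 in females and 176.4, 330.1 and 472.7 in males, with more overlap, and a difference of -0.61 (SE 0.11, adjusted p = 7.52e-05).

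ImpL2 was higher in males by 0.27 (SE 0.07, adjusted p = 0.00181), outside the threshold of 0.001. Ilp2 differed between the sexes by 0.13 (interval -0.11 to 0.37, adjusted p = 0.290) and Ilp5 by 0.12 (interval -0.09 to 0.32, adjusted p = 0.260), both higher in males. These signs depend on scaling. After quantile normalization, males minus females was -0.077 for Ilp2 (adjusted p = 0.551) and -0.50 for Ilp5 (adjusted p = 0.000108), and ImpL2 was called at 0.30 (adjusted p = 0.000864), so that 5 of the 6 genes were then called. The ovary marker sum was at least 18197.2 in every female sample and at most 443.1 in males, and its part in the sex differences was not tested.

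**Figure D3:**
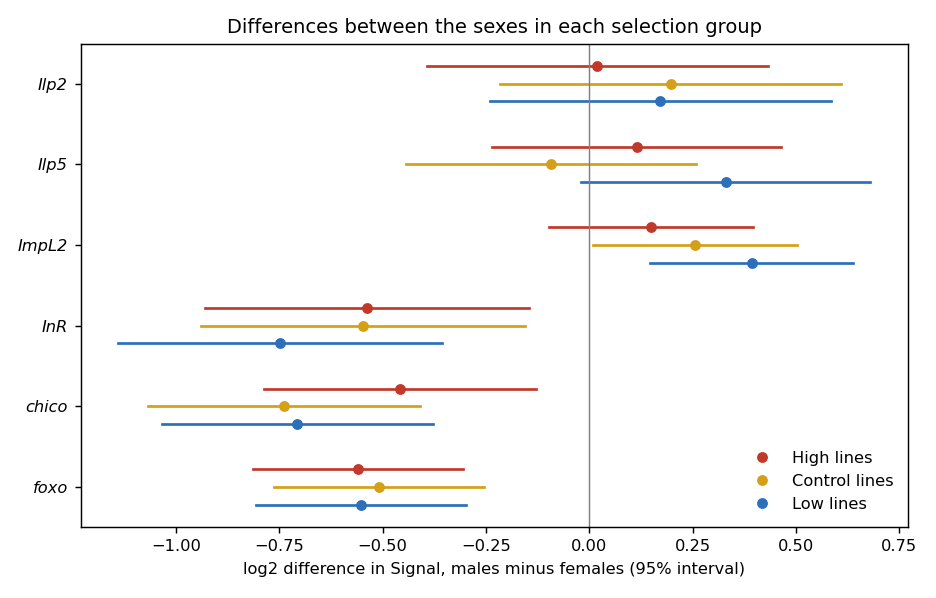
Differences in log2(Signal) of males minus females (horizontal axis) for the 6 insulin signalling genes in H, C and L lines, with points for the estimate and lines for its 95% interval from limma. InR, chico and foxo lie below 0 with their intervals in all 3 groups, from -0.46 for chico in H to -0.75 for InR in L. Within the groups, not all of these pass an adjusted p under 0.001. InR does not in H (0.0168), C (0.0152) or L (0.00184), nor chico in H (0.0153), nor foxo in C (0.00135).

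Across the 12 means of line and sex, after the mean of each sex was taken away, the correlations among the insulin signalling genes were moderate. The highest Pearson correlation among the 15 pairs was 0.67, between Ilp2 and foxo, and the lowest -0.45, between ImpL2 and foxo. ImpL2 and InR had 0.22. These are descriptions over 12 means that share arrays, and no test was made. The genes whose pattern was most like that of ImpL2 by the same measure were CG44014 (0.953), mat (0.947) and CG1246 (0.947). Those most like InR were AP-2alpha (0.935), Cdk5alpha (0.909) and AnxB11 (0.902), and those most like foxo were CG31279 (0.919), Wdr33 (0.891) and CG11279 (0.888).

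Other genes of the pathway were taken from 5 lists of 55 genes, of which 40 had a named probe set here and 36 passed the filter. Between H and L, 8 of the 36 were called (22.2%, against 15.7% of all probe sets), 3 higher and 5 lower in H. The median difference was -0.02, against -0.01 over all probe sets. Between H and C, 6 were called (16.7%, against 11.2%) and between C and L 7 (19.4%, against 15.5%). An effect of line passed the test for 2 of these, Cbl and NLaz (5.56%, against 4.76%). Shares near the background are no result about the lists. For some genes below, the H arrays lay below all L arrays. The share of all probe sets for which this holds was not counted, so the lack of overlap has no background here.

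Among the ligands and binding proteins, 3 of 8 genes were tested, Ilp8, Sdr and Lst, and 0 were called between groups. Sdr, a secreted relative of the receptor that binds insulin-like peptides, was at -0.07 (SE 0.10, adjusted p = 0.696) for H minus L, and Lst, a peptide that restrains insulin secretion, at 0.02 (SE 0.16, adjusted p = 0.959). Ilp8, a relaxin-like peptide, had a Signal of 191.5 to 761.9 in females and 4.8 to 25.9 in males, so it passed the filter through the females.

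Between the membrane and Akt, 6 of 12 listed genes were tested, and Pdk1 was higher and Cbl and wdb lower in H than in L. Pdk1, the kinase that phosphorylates Akt, was at 0.19 (SE 0.06, adjusted p = 0.0484), and Akt itself at 0.32 (SE 0.11, adjusted p = 0.0655), short of the call. Akt Signal was 1130 to 1614 in H females against 1025 to 1309 in L females. wdb, a regulatory subunit of the phosphatase PP2A, was at -0.18 (SE 0.05, adjusted p = 0.0255). Its difference in females was -0.37 (adjusted p = 0.0033) and in males 0.02 (adjusted p = 0.971), with an adjusted p of 0.09 for the difference between the sexes. Cbl, a ubiquitin ligase of receptor tyrosine kinases, had the largest difference of the 36 genes. Its probe set of highest mean had a Signal of 422.7 to 606.5 in H females against 1346 to 1582 in L females, and 88.5 to 149.8 in H males against 312.8 to 387.2 in L males. That is a difference of -1.60 (SE 0.11, adjusted p = 4.12e-07), with no overlap in either sex. The other Cbl probe set was at 0.18 (SE 0.08, adjusted p = 0.127), so the probe sets of Cbl disagree.

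In the TOR branch, 11 of 15 listed genes were tested, and raptor was lower and eIF4E1 higher in H than in L. raptor, the defining subunit of TOR complex 1, had a Signal of 235.6 to 293 in H females and 296.1 to 358.2 in L females, and of 77.6 to 129.5 in H males and 140 to 150.4 in L males. H and L did not overlap in either sex, and the difference was -0.44 (SE 0.07, adjusted p = 0.000796). eIF4E1, the cap-binding factor that Thor restrains, was at 0.15 (SE 0.04, adjusted p = 0.0412). rictor, of TOR complex 2, was lower in H than in C by a log2 difference of -0.38 (SE 0.10, adjusted p = 0.0233) and higher in C than in L by 0.34 (adjusted p = 0.0323). Sesn, a stress-induced inhibitor of TOR, was higher in C than in L by 0.30 (SE 0.08, adjusted p = 0.0208). For sex, 9 of the 11 genes were called, all 9 lower in males, with a median of -0.66 over the list, against 69.5% of all probe sets called, 43.9% as lower in males, and a median of -0.19. Over the 36 pathway genes, 22 were called for sex (61.1%), 18 lower and 4 higher in males, with a median of -0.33.

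Of the fasting, Foxo and adipokinetic genes, 9 of 11 were tested, with Pepck1 lower and tobi higher in H than in L. Pepck1, an enzyme of glucose synthesis, was at -1.09 (SE 0.17, adjusted p = 0.000477). Its Signal was 1593 to 3607 in H females against 5648 to 7477 in L females, and 5689 to 6747 in H males against 9958 to 13078 in L males, with no overlap. Pepck1 was also lower in C than in L, by a log2 difference of -0.78 (adjusted p = 0.00659), and H minus C was -0.31 (adjusted p = 0.270). The Control lines lay apart, with a mean log2(Signal) of 11.84 in line 1 and 12.76 in line 2. The means were 11.94 and 12.04 in High lines 1 and 2, and 13.03 and 13.13 in Low lines 1 and 2. tobi, an alpha-glucosidase known as a target of brain insulin, was at 0.41 (SE 0.13, adjusted p = 0.0406). It was also higher in C than in L, by 0.57 (adjusted p = 0.00858), and H minus C was -0.15 (adjusted p = 0.505). The mean log2(Signal) of tobi was 12.73 and 12.40 in High lines 1 and 2, and 12.01 and 12.30 in Low lines 1 and 2. It was 13.09 in Control line 1 and 12.35 in Control line 2, so the Control lines lay apart here too. AkhR, the receptor of adipokinetic hormone, was lower in H than in C by a log2 difference of -0.43 (SE 0.11, adjusted p = 0.0188), with -0.49 (adjusted p = 0.0528) on its other probe set.

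Of the signals that reach the insulin-producing cells, 7 of 9 were tested. CCHa2, a nutrient-responsive peptide that promotes insulin secretion, was lower in H than in L by a log2 difference of -0.56 (SE 0.12, adjusted p = 0.00519) and lower than in C by -0.52 (adjusted p = 0.0117). Its Signal was 513.3 to 830.9 in H females against 1017 to 1330 in L females, with no overlap, and 678.4 to 1087 in H males against 1086 to 1448 in L males, where the ranges overlapped. NLaz, a lipocalin that antagonizes insulin signalling, had a line effect (adjusted p = 0.000493). It was higher in H than in C by 0.39 (SE 0.09, adjusted p = 0.00953) and lower in C than in L by -0.34 (adjusted p = 0.0159), with H minus L at 0.05 (adjusted p = 0.763). The mean log2(Signal) of NLaz was 12.14 in Low line 1 and 11.23 in Low line 2. egr, a tumour necrosis factor, was at 0.18 (SE 0.06, adjusted p = 0.0659) for H minus L on the probe set of highest mean and at 0.66 (SE 0.17, adjusted p = 0.0194) on the other.

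**Figure D4:**
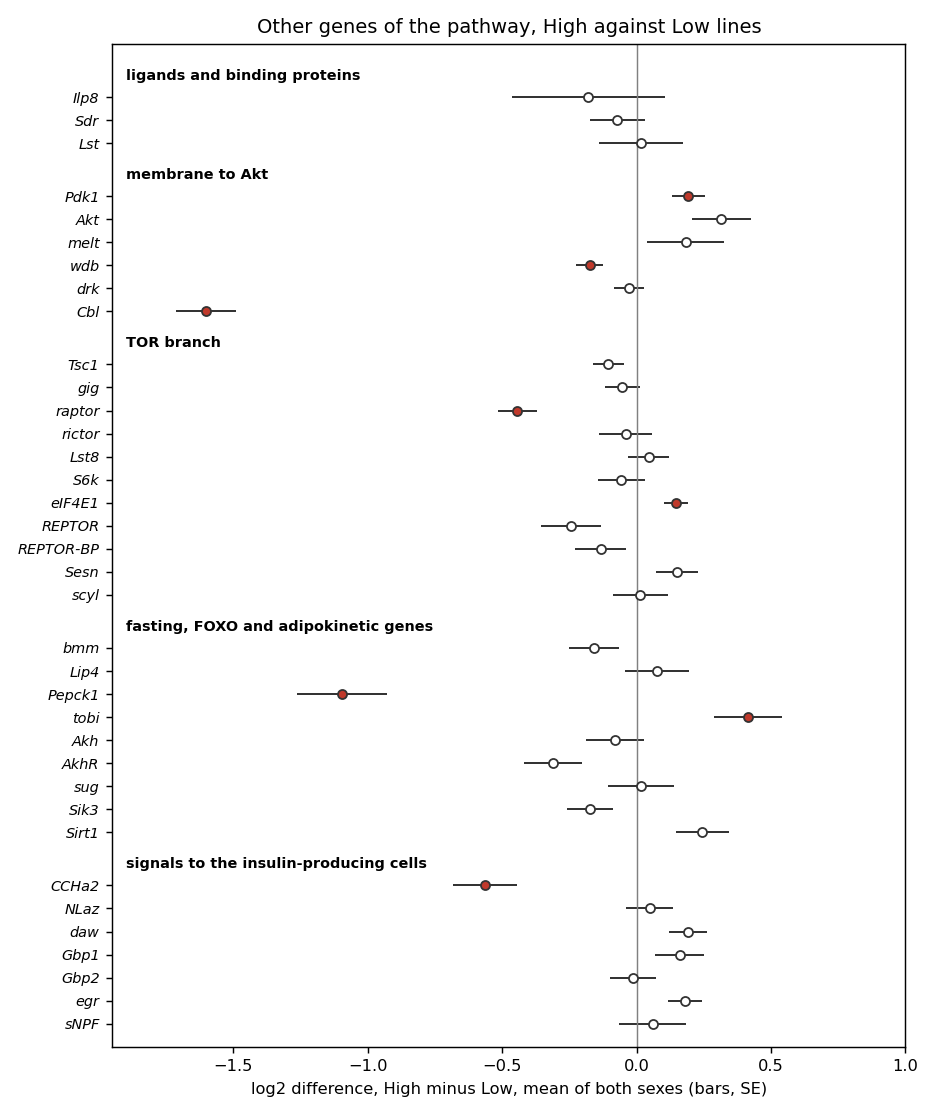
Differences in log2(Signal) of H minus L (horizontal axis), averaged over both sexes, for the 36 other genes of the pathway that were tested, each by its probe set of highest mean. Bars are the SE from limma, and filled points had an adjusted p under 0.05. Cbl (-1.60), Pepck1 (-1.09), CCHa2 (-0.56) and raptor (-0.44) were the lowest in H and tobi (0.41) the highest.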

How the data were processed

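Whole-fly RNA of 24 samples was measured on Affymetrix Drosophila GeneChip 2.0 arrays, 1 sample each. The values are the authors' deposited Signal intensity, for which they ran MAS5 on the paired perfect-match and mismatch probes and scaled every array. Of the value columns, 0 were left unused. The authors' genome build is not stated in the sources read, and current symbols and gene order were taken from RefSeq (assembly Release 6 plus ISO1 MT). Probe sets were named from the platform annotation: 13646 had 1 symbol, 402 several and 4721 none here. log2(Signal) was taken without further scaling, and limma was fitted to the 11439 probe sets whose median Signal reached 75, with a mean for each of the 12 combinations of line and sex (12 residual degrees of freedom, Benjamini-Hochberg adjustment). This filter stands in for the methods' detection calls, which the value table does not hold. The number of arrays limits the precision. The fit was tested on simulated data that held no variation among lines within a group, so that check does not cover such variation.

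The 9 genes, the pathway lists and the marker lists were chosen with earlier results of these data known. Named besides the 9 genes are, of each list, up to 6 genes with the smallest p for line and up to 4 for H minus L, and the 3 genes most like ImpL2, InR and foxo. A gene counted once, by its probe set of highest mean. The scale was varied (log2(Signal + 50), or the linear Signal in the methods' factorial model). In the linear setting every contrast was adjusted over all probe sets tested, without the methods' prior selection by line effect. Also varied were the normalization (quantile, or medians centred by sex), the filter (50, 150 or none), the treatment of lines (random block, or their means as samples, with and without line number as a block), a replicate block, the thresholds, and the removal of single arrays and lines. Analyses were run in R 4.3.3 with limma 3.58.1, and in Python 3.11.15 with NumPy 2.4.6, pandas 2.3.3 and matplotlib 3.10.9.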

Additional observations from a re-analysis of the deposited data

Results flagged for a closer look

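In each of the 36 combinations of the 6 genes, selection group and sex, the 4 arrays were searched for one that lay far from the other 3. There were 2 such arrays, and chance gives about 1 in 20 combinations. Among H females, Ilp2 had a Signal of 264.5 on replicate 1 of line 2, with the next at 166.1. Among H females, chico had 993.1 on replicate 2 of line 1, with the next at 786.1. No difference between the sexes in H minus L passed an adjusted p of 0.05 in limma, for the 6 genes or for the 41 probe sets of the pathway lists.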

How the results depend on the processing

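The ImpL2 differences of H minus L and H minus C kept their direction and their call under each alternative except line means as the samples, where they were 0.73 (adjusted p = 0.343) and 0.76 (adjusted p = 0.504), and the same with line number as a block, an alternative chosen after seeing the data, where they were 0.73 (adjusted p = 0.325) and 0.76 (adjusted p = 0.454). In both, 0 of the 6 genes were called in either contrast. Leaving out an array or a line gave 0.60 to 0.86 for H minus L and 0.62 to 0.89 for H minus C, and an adjusted p of the line effect from 8.34e-05 to 0.00169, with 0 to 1 of the 6 genes called. The number of genes called for H minus L was 2 in the factorial analysis of the linear Signal, and 1 to 2 with an array or line left out. For C minus L it was 1 in that analysis, with log2(Signal + 50) and with a median Signal of at least 150, and 0 to 1 with an array or line left out. For sex it was 5 after quantile normalization, and 3 to 4 with an array or line left out. Signs changed for values that were not called in the main analysis. After quantile normalization the differences of males minus females were -0.077 for Ilp2 and -0.50 for Ilp5, while the median of all probe sets moved from -0.19 to -0.25. With median centring within each sex, C minus L was -0.00315 for Ilp2 and -0.055 for chico. With an array or line left out, H minus L had a range of -0.33 to 0.011 for Ilp2, -0.28 to 0.086 for Ilp5 and -0.21 to 0.10 for chico. H minus C had -0.24 to 0.025 for InR and -0.25 to 0.062 for chico. C minus L had -0.16 to 0.11 for ImpL2, -0.079 to 0.26 for Ilp2, -0.026 to 0.10 for chico and -0.20 to 0.066 for foxo. The cause of these shifts was not tested. With line as a random block, 398, 183 and 252 of all probe sets were called for H minus L, H minus C and C minus L, ImpL2 among them for the first 2. The number of all probe sets with a line effect was 849 with log2(Signal + 50), 295 with no filter, 1515 at an adjusted p under 0.01 and 3210 at 0.05. Using all probe sets of a gene, 1 of the signals to the insulin-producing cells was called higher in H than in L, in place of 0.

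The replicate numbers of the arrays do not pair them. Of 66 pairs of line and sex, 6 had deviations correlated above 0.1 (median -0.01). With the replicate number as a block, ImpL2 was at 0.73 for H minus L, and no call of the 6 genes changed.

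The array has 1 named probe set for each of the 6 genes, so that no gene was checked on another one, and 3 genes of the pathway are not analysed here. Ilp5, with a median Signal of 97.7, lay nearest to the filter. With 2 lines in a group, drift between lines and selection cannot be told apart by these p-values.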

Other observations

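ImpL2 was 1 of 23 probe sets whose H arrays all lay above all L and C arrays of the same sex, and it ranked 19 of the 23 by H minus L. This set was looked up after the values had been seen. Of the 23, 18 had a single gene name. The highest were Cpr72Ec, a cuticular protein gene, at a log2 difference of 3.20 for H minus L (SE 0.28) and 2.04 for H minus C, and CG6908, at 3.04 (SE 0.11) and 1.27. CG44014 was there with 2 probe sets, at 1.75 (SE 0.13) and 1.57 (SE 0.10) for H minus L. Cyp6w1, a cytochrome P450 gene, was at 1.53 (SE 0.15) and kumpel at 1.07 (SE 0.06). CG44014 and mat, at 1.41 (SE 0.16), were also among the 3 genes whose pattern over lines and sexes was most like that of ImpL2. Both sets come from the same arrays and the same rise in H, so their overlap is no separate result.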
